A study of Mus musculus with 8 samples.

Results

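Six4, Sox10, Ltk, Cplx1, Fcmr, Lpo, Bcas1, Camk2n2, Abhd11 and Ankrd33b are 10 genes whose transcripts were more abundant in testes of Brwd1 mutant mice. They were chosen from the comparison of mutant with wild-type arrays, so the size and direction of that difference describe how they were picked and support nothing further. The array carries 21 probe sets annotated with these 10 symbols, out of 45037 probe sets that are not controls. All 21 are described here. Of these, 12 lay above the filter on dim signals and 9 below it. The filter used all 8 arrays, so high mutant values could carry a probe set over it, as they did for Sox10.

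The mice were 27 days old, and each gave 1 array of whole-testis RNA. There were 4 mutants, labelled Brwd1-/-, and 4 controls. The titles of the controls say wild type, but the genotype given for them is Brwd1+/-, which would leave them 1 mutant copy. The name wild type is kept for them. The labels do not say what the Brwd1 mutation is, or on which strain it lies. The probe set that represents Brwd1 read 290 ± 46.7 in wild type and 365 ± 71.0 in mutants (SD over 4 mice per genotype), while the other 3 kept Brwd1 probe sets were lower in mutants. None of the 4 was called in any fit, so the Brwd1 probe sets give no check of the genotype labels. Replicates 3 and 4 of both genotypes stand apart from replicates 1 and 2, which the labels do not explain, and each set holds 2 mice per genotype. RNA markers of the epididymis, summed over 9 genes, ran from 395 to 61318 in wild type and from 310 to 70734 in mutants. Their median was 6.60 log2 units higher in replicates 3 and 4.

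The 10 genes belong to no single pathway. Six4 and Sox10 encode transcription factors. Ltk and Fcmr encode receptors of the cell surface. Cplx1 and Camk2n2 encode small proteins that act on vesicle release and on a calcium-dependent kinase. Lpo and Abhd11 encode enzymes, and Bcas1 and Ankrd33b are known mainly from tissues other than the testis or are little studied. As background on the gonad, Six4 contributes in the fetal gonad to the expression of Sry, the gene that starts testis development. Sox8 and Sox9, the closest relatives of Sox10, are transcribed in Sertoli cells, the somatic cells that support germ cells. Fcmr binds immunoglobulin M on B lymphocytes. For the other genes no cell type of the testis is named here. In RNA of a whole organ, fewer cells of a type and less RNA per cell cannot be told apart.

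The promoters of these genes differ widely in composition. RefSeq promoters of assembly GRCm38.p6, 250 bases before to 50 after a start site, were at hand for 8 of the 10 genes, and not for Sox10 or Bcas1. The following 5 are shown because they span the range of CG counts among these 8 genes. Lpo and Fcmr had the lowest counts, and Cplx1 and Camk2n2 the highest. Six4 is shown because its promoter holds a motif of its own protein family. Each is written 5′ to 3′ on the gene's strand. Capitals mark matches on either strand to TATAAA, the SOX motif ACAAAG, the MEF3 motif TCAGGTT, which Six4 binds, the cAMP response element TGACGTCA or its core TGACG, the GC box GGGCGG and the CCAAT box CCAAT.
Six4 (chr12:73113196-73113495, minus strand): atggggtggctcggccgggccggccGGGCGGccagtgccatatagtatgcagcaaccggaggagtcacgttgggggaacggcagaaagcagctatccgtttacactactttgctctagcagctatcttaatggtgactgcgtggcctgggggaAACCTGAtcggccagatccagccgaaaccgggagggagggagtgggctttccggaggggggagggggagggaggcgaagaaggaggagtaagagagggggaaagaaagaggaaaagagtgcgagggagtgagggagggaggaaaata
Cplx1 (chr5:108549978-108550277, minus strand): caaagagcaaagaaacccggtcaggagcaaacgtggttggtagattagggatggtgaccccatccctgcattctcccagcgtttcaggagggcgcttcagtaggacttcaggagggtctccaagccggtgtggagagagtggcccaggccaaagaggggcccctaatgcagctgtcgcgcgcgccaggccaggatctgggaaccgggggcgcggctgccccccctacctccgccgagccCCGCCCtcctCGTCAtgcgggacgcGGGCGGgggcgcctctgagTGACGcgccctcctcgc
Fcmr (chr1:130865527-130865826, plus strand): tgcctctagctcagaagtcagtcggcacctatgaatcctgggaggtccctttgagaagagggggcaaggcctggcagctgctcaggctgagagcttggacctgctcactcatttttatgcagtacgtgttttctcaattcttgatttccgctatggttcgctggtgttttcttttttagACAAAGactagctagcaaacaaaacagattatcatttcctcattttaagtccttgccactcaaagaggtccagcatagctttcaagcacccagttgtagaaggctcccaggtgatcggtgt
Lpo (chr11:87826065-87826364, minus strand): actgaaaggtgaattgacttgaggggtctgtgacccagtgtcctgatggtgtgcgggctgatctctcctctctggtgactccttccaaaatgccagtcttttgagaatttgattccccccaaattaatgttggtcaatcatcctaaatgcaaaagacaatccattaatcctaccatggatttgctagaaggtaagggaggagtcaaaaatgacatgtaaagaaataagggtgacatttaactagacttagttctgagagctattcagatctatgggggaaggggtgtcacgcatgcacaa
Camk2n2 (chr16:20621229-20621528, minus strand): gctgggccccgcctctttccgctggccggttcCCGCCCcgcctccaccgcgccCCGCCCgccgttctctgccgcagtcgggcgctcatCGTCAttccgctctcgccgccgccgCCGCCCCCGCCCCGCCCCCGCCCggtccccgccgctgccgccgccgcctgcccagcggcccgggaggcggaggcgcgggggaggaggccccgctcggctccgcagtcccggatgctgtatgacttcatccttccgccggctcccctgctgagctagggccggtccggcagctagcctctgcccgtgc

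The Lpo promoter holds 2 CG dinucleotides and the Fcmr promoter 5, against a median of 7 over all 32851 promoters of the table. Camk2n2 holds 43, more than 97.4% of those promoters do, and Cplx1 24. The promoters of Ltk, Ankrd33b, Six4 and Abhd11 held between 14 and 22. The GC box was found in 6 of the 8 genes and in 35.7% of all promoters. The core TGACG, which also lies within TGACGTCA, was found in 4 genes (Cplx1, Camk2n2, Abhd11 and Ankrd33b) and in 20.8% of promoters. The SOX motif was found in 2 genes, Fcmr and Ankrd33b, against 18.7% of promoters, and the MEF3 motif in Six4 alone, against 4.07%. TATAAA and TGACGTCA were found in none of the 8 genes, against 13.6% and 1.79%. Counts of genes include any of several start sites (2 for Six4, 3 for Abhd11), and the shares are per promoter. The Lpo promoter holds none of these motifs. A match is a description of the letters and shows no binding.

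Six4, a homeobox factor, was about doubled in mutants. Its representing probe set, that of the highest mean, read 59.8, 75.3, 86.8 and 71.2 in wild-type replicates 1 to 4. The mutants, in the same order, read 159.3, 162.1, 195.9 and 185.2. The lowest mutant lay well above the highest wild type, and the spread within a genotype was small (73.3 ± 11.2 and 176 ± 17.8, SD, n = 4 each). The log2 difference was 1.11 (standard error, SE, 0.16), on the scale of log2(intensity + 16), which understates the change of dim probe sets. The other 3 probe sets of Six4 were dimmer and lay below the filter. The first read 16.9 to 32.5 in wild type and 35.8 to 52.3 in mutants, and the second 1.35 to 18.1 and 32.2 to 56.0. In both, every mutant again lay above every wild type, with log2 differences of 0.64 and 1.27. The last overlapped: mutant replicate 3 read 5.89, below 3 of the 4 wild-type values, and the difference was 0.39 (SE 0.33). All 4 probe sets thus had positive differences, and 3 separated the genotypes.

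Sox10, a factor of the neural crest and its glia, had the least even wild-type values of the 10 genes on its representing probe set. It read 74.9, 13.4, 53.6 and 52.6 in wild-type replicates 1 to 4 and 180.4, 223.8, 115.0 and 174.5 in mutant replicates 1 to 4. The groups did not overlap, and wild-type replicate 2 was the lowest by far. The log2 difference was 1.63 (SE 0.36), and 1.29 without that mouse. This probe set averaged 48.6 in wild type and passed the filter through its mutant values, while a Sox10 probe set averaging 53.9 in wild type failed. The other probe sets of Sox10, both below the filter, did not separate the genotypes. One read 8.11 to 78.3 in wild type and 46.8 to 110.4 in mutants, with a log2 difference of 0.48 (SE 0.45). The other read under 10 on every array, with a difference of -0.01. The rise of Sox10 thus rests on 1 of its 3 probe sets.

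Ltk encodes a receptor tyrosine kinase related to Alk and has a single probe set. It read 136.8, 79.2, 162.9 and 99.8 in wild-type replicates 1 to 4 and 631, 388, 309.6 and 216.6 in mutant replicates 1 to 4. All mutants lay above all wild types, and their own range was close to 3-fold, with replicate 1 the highest. The log2 difference was 1.51 (SE 0.33), and 1.25 without mutant replicate 1.

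Fcmr, the receptor for immunoglobulin M, also has 1 probe set. It read 416, 612, 458 and 391 in wild-type replicates 1 to 4 and 828, 1330, 888 and 847 in mutant replicates 1 to 4. Here 3 mutants were close together and replicate 2 stood above them. The log2 difference was 1.02 (SE 0.20), and 0.86 without mutant replicate 2. Markers of B cells were near the floor: 6 of 7 on the array lay below the filter (Cd79a, Cd79b, Ms4a1, Pax5, Blk and Cd22). The remaining marker, the immunoglobulin M heavy chain gene Ighm, read 163 ± 35.9 in wild type and 149 ± 23.8 in mutants (SD over 4 mice per genotype).

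**Figure D1:**
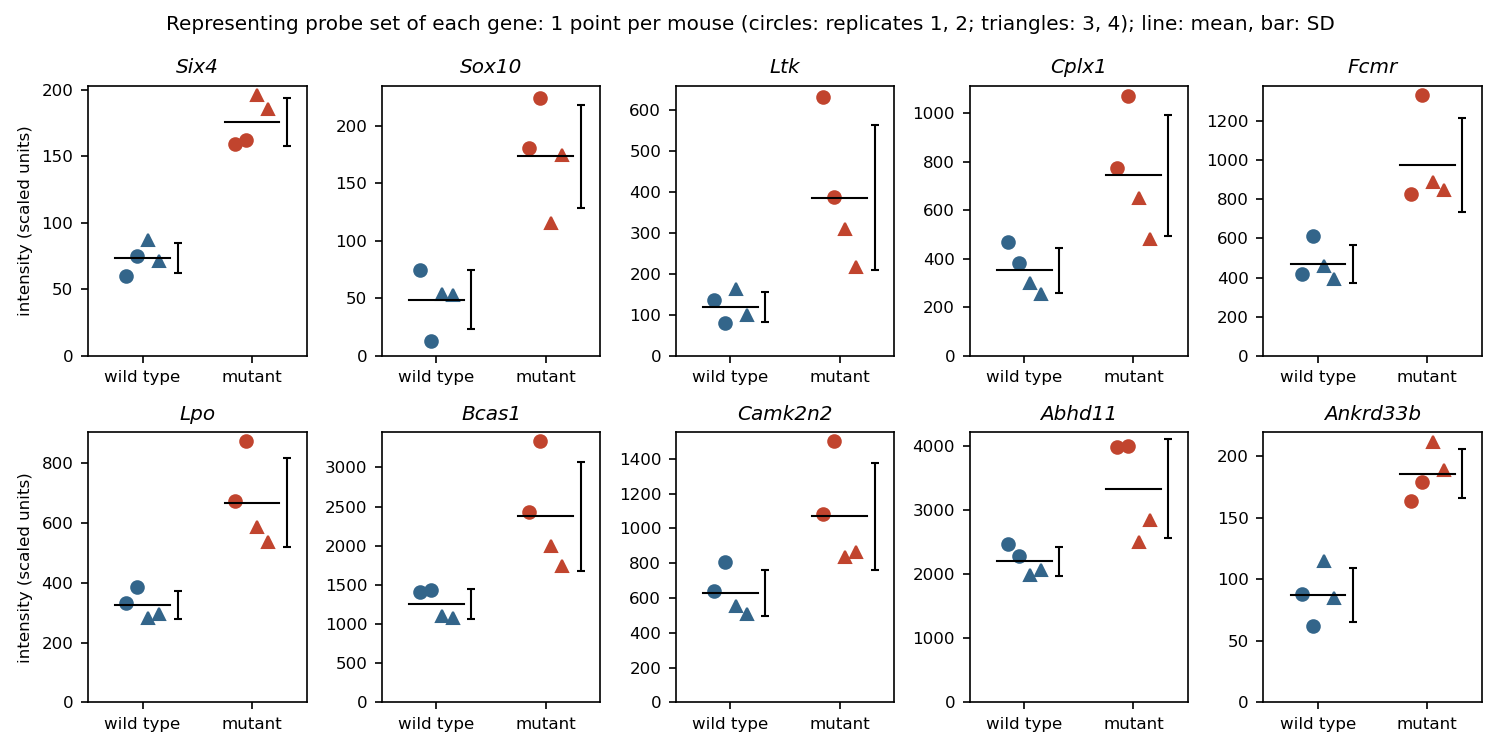
Intensity (scaled units, linear axis from 0) of the representing probe set of each of the 10 genes, 1 point per mouse, with the mean as a line and the SD as a bar (n = 4 per genotype). In each panel the 4 mutant points lie above the 4 wild-type points, and mutant replicate 2 is the highest point for Sox10, Cplx1, Fcmr, Lpo, Bcas1, Camk2n2 and Abhd11.

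Cplx1, which binds the SNARE complexes of vesicle fusion, was split over its probe sets. The representing probe set read 470, 381, 301 and 257 in wild-type replicates 1 to 4 and 772, 1070, 651 and 480 in mutant replicates 1 to 4. Mutant replicate 4 and wild-type replicate 1 nearly met, and the log2 difference was 1.02 (SE 0.27). A further probe set gave 52.6 to 121.0 in wild type and 148.2 to 194.6 in mutants, without overlap, a log2 difference of 0.83 (SE 0.23). The last read 119.3 to 190.5 and 131.7 to 196.6, almost the same range, and its difference was 0.09 (SE 0.20). All 3 probe sets passed the filter.

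Camk2n2 encodes an inhibitor of calcium/calmodulin-dependent kinase II. Its only probe set read 638, 807, 555 and 508 in wild-type replicates 1 to 4 and 1084, 1501, 835 and 862 in mutant replicates 1 to 4. Mutant replicate 3 lay just above wild-type replicate 2. The log2 difference was 0.74 (SE 0.22), and 0.56 without mutant replicate 2. Camk2n2 lies on chromosome 16, as Brwd1 does, and none of the other 9 genes does.

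Lpo, a secreted haem peroxidase of milk, saliva and airway fluid, read 332, 387, 282 and 296 in wild-type replicates 1 to 4. The mutants, in the same order, read 673, 872, 585 and 536. The gap between the groups was wide compared with the spread of wild type, and the log2 difference was 0.99 (SE 0.18). Abhd11, a hydrolase of mitochondria, had the most even wild-type values of the 10, at 2480, 2292, 1983 and 2067 in replicates 1 to 4. In mutants it read 3982, 4008, 2512 and 2852. The nearest values, wild-type replicate 1 and mutant replicate 3, differed little. The log2 difference of Abhd11, 0.57 (SE 0.18), was the lowest of the 10, and 188 of 13787 genes (1.36%) had one at least as high.

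Bcas1, a gene of myelin-forming glia that is also amplified in breast cancer, read 1405, 1431, 1103 and 1073 in wild-type replicates 1 to 4. The mutants, in the same order, read 2436, 3331, 1991 and 1746. The groups did not overlap, and the log2 difference was 0.88 (SE 0.21). Its 2 other probe sets lay below the filter, read 6.59 to 51.4 over all arrays, and had differences of -0.15 and -0.36 (SE 0.32 each). The higher level of Bcas1 was thus seen on 1 of 3 probe sets. Ankrd33b, an ankyrin repeat gene, read 87.8, 62.0, 114.6 and 84.4 in wild-type replicates 1 to 4 and 163.7, 179.1, 211.6 and 188.3 in mutant replicates 1 to 4. The log2 difference was 0.99 (SE 0.19). Its 2 dim probe sets had differences of 0.38 and 0.47, with overlapping groups.

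**Figure D2:**
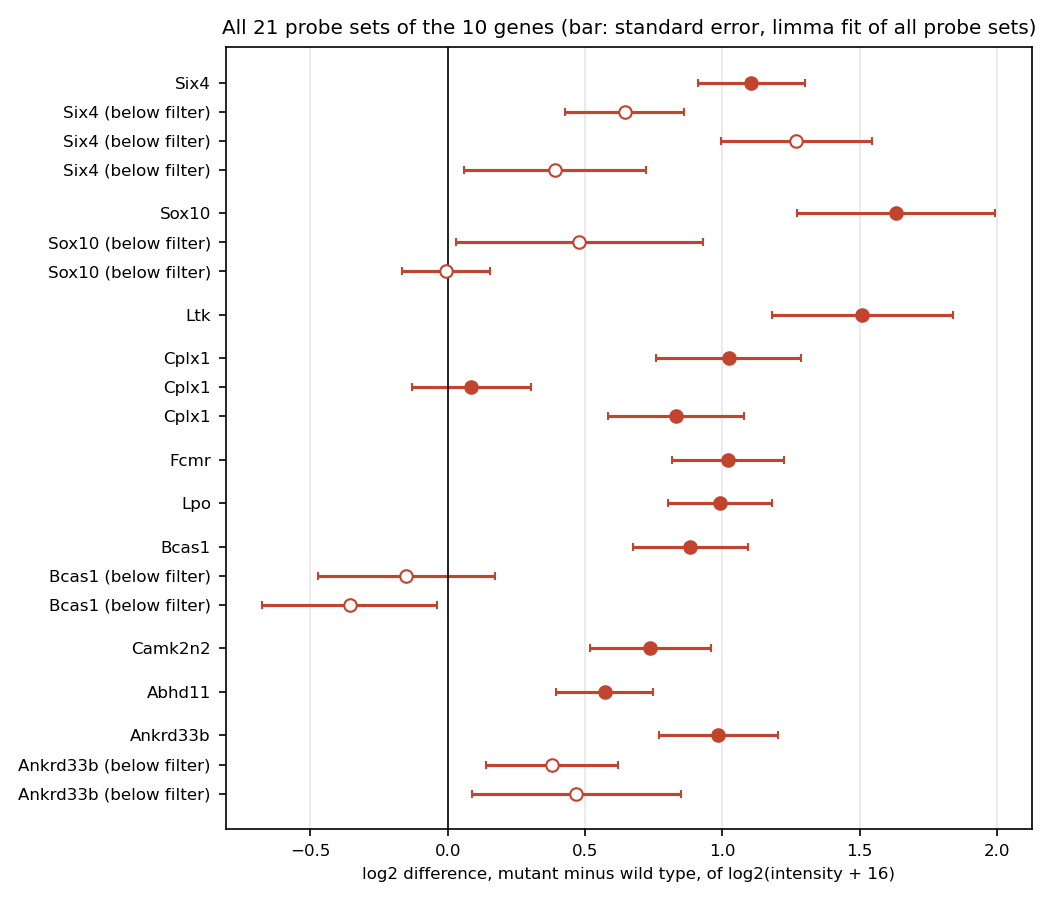
Log2 difference, mutant minus wild type, for all 21 probe sets of the 10 genes, with the standard error of a limma fit of all probe sets. Filled points passed the filter and open points did not, and 18 points lie to the right of 0 while 3 (1 of Sox10, close to 0, and 2 of Bcas1) lie to its left.

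Over all 21 probe sets, 18 had positive differences and 3 negative ones. Of the 5 genes with several probe sets, Six4, Cplx1 and Ankrd33b had positive differences on every one, and Sox10 and Bcas1 did not. All mutants lay above all wild types in 11 of the 12 kept probe sets (2.27% of all kept probe sets did so) and in 13 of the 21 (2.03% of all 45037). After each array was centred on its median, 7 of the 12 kept probe sets showed this separation, as did 259 (0.958%) of all kept probe sets. The probe sets of Cplx1 (the representing one), Bcas1, Camk2n2 and Abhd11 no longer did, while their log2 differences stayed between 0.52 and 0.98. Since the genes were chosen on this contrast, and Sox10 passed the filter through its mutant values, nothing is read from these counts.

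With 1 probe set per gene, limma called 1 of the 10 genes, Six4, higher without a block, where 0.0145% of all genes were called higher. With the replicate number as a block all 10 were called (0.326% of all genes), and with the split of replicates 1 and 2 from 3 and 4 as a block all 10 again (0.471%). In all, 42 genes were called higher in both blocked fits, and these 10 are among them. By size the 10 ranked from 1 to 35 among the 45 genes called with the replicate block. On single probe sets the counts were 0, 10 and 10 of 12 (0%, 0.211% and 0.311% of all probe sets). The 2 not called were the further probe sets of Cplx1. No probe set was called higher without a block, and without limma's intensity trend 2 of all probe sets were. In the unblocked limma fit with trend, 11 of the 12 had an unadjusted p under 0.05. That count describes how the genes were chosen, has no share of all probe sets beside it, and supports nothing further.

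The blocked calls moved with single mice, for the 10 genes and for all genes alike. With the split of replicates as a block, 0 of the 10 genes were called without wild-type replicate 3 (6 of all genes were called higher) or mutant replicate 3 (3 of all genes). Without wild-type replicate 1 it was 1 (of 5 called), without wild-type replicate 2 it was 2 (of 9), and without mutant replicate 4 it was 5 (of 14). Without wild-type replicate 4, mutant replicate 2 and mutant replicate 1 it was 7 (of 48), 8 (of 35) and 10 (of 76). The log2 difference of each of the 10 stayed positive in all 8 of these fits, as the lack of overlap between genotypes requires.

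The difference between the sets of replicates, which are balanced over genotype, is not the contrast the genes were chosen on. All 10 genes were, however, called with that split as a block, and the same residual is used here. A small residual favours a call in both, so the counts below are not independent of the choice. Of the 12 kept probe sets, 5 were lower in replicates 3 and 4 (limma, all probe sets, genotype as a term), where 17.5% of all probe sets were. None was higher, where 22.9% were. The 5 belong to Cplx1, Lpo, Bcas1, Camk2n2 and Abhd11. Cplx1 averaged 673 in replicates 1 and 2 of both genotypes and 422 in replicates 3 and 4, a log2 difference of -0.63, SE 0.16 (limma, adjusted p = 0.00992). For Bcas1 it was -0.49, SE 0.12 (limma, adjusted p = 0.00907) and for Abhd11 -0.40, SE 0.10 (limma, adjusted p = 0.0094). Camk2n2 gave -0.50 (limma, adjusted p = 0.0153), and Lpo -0.37 (limma, adjusted p = 0.0437). Six4 and Ankrd33b had positive differences of 0.21 and 0.28 that were not called. The count fell from 5 to 3 without mutant replicate 3. Epididymal RNA, higher in replicates 3 and 4 as given above, moved opposite to these 5 genes, and its part in their levels was not tested.

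**Figure D3:**
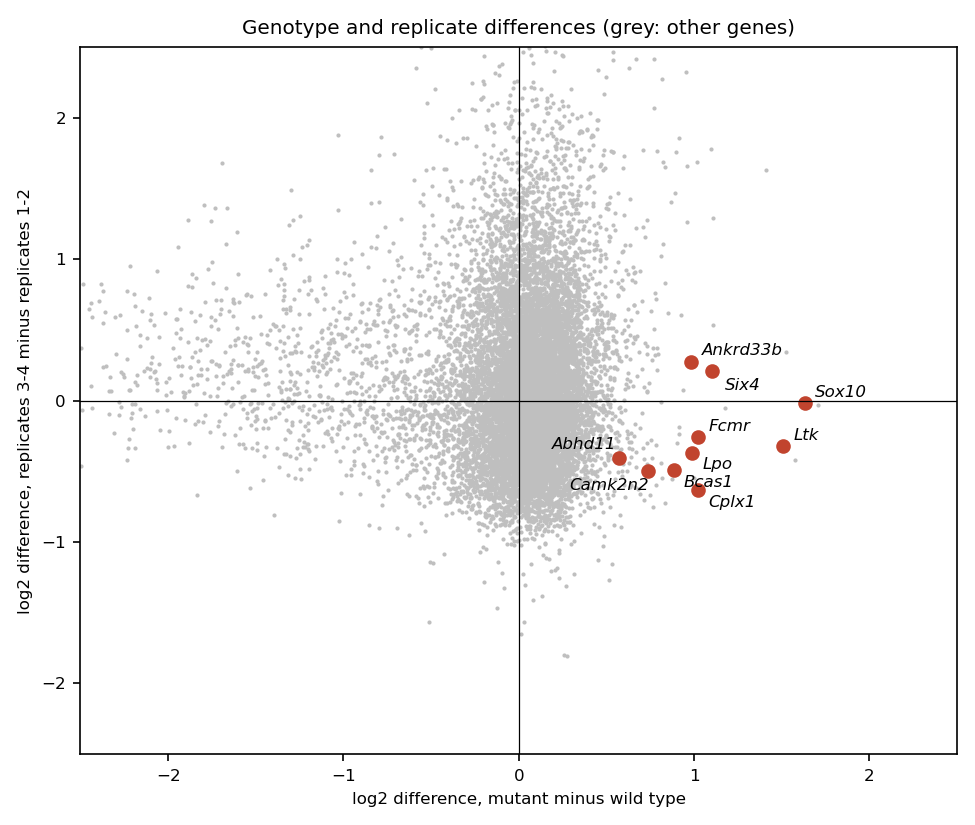
Log2 difference by genotype (x axis) against that between replicates 3 and 4 and replicates 1 and 2 (y axis) for the 10 genes (red) and all other genes (grey), of which 145 lie outside the range plotted. The 10 genes lie to the right by their choice, and on the y axis they run from -0.63 (Cplx1) to 0.28 (Ankrd33b).

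In both sets of replicates the genotype difference was positive for each of the 10 genes, as their lack of overlap requires. It was nearly equal for Six4 (1.09 within replicates 1 and 2, 1.12 within 3 and 4), Fcmr (1.03 and 1.01) and Cplx1 (1.08 and 0.97). It was less so for Ltk (2.08 and 0.93), Sox10 (2.07 and 1.19) and Abhd11 (0.74 and 0.40). A test of that inequality, the interaction of genotype and set, called 0 of the 12 probe sets and 0% of all probe sets (limma). For Ltk the inequality was -1.15, SE 0.49 (unadjusted p = 0.0448, limma's adjusted p = 0.791). It was the only one of the 12 with an unadjusted p under 0.05, as were 1403 (5.19%) of all probe sets. With 2 mice per genotype in a set, differences of this size between sets were not resolved. All 10 genes were called with the split of replicates as a block, where such an inequality adds to the residual. Genes called there tend to have small inequalities, so the test is not independent of those calls.

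**Figure D4:**
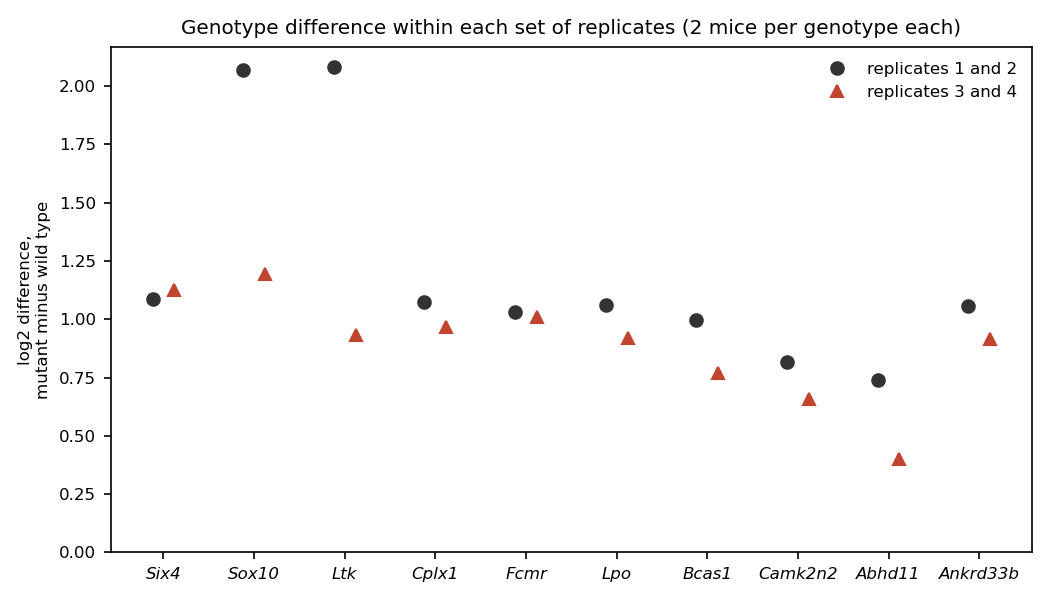
Log2 difference, mutant minus wild type, of the representing probe set of each gene within replicates 1 and 2 (circles) and within replicates 3 and 4 (triangles), each from 2 mice per genotype. All 20 points lie above 0, as the lack of overlap between genotypes requires, and the widest gap is that of Ltk.

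Genes whose values ran closest to each of the 10 over the 8 arrays, by Pearson correlation of log2 values, included others of the 10 for Cplx1, Fcmr, Lpo, Bcas1 and Camk2n2. These correlations hold the genotype difference and the difference between replicates, so they are descriptions only. Bcas1 was among the 3 closest genes of Cplx1 (r = 0.98), Lpo (0.98) and Camk2n2 (0.97), and Lpo was the closest to Fcmr (0.97). Scpep1, a serine carboxypeptidase gene, was among the 3 closest of Cplx1 (0.99), Bcas1 (0.99) and Lpo (0.98). Six4, Sox10, Ltk and Ankrd33b had other neighbours: Erlin1 (0.99), Dmwd (0.98), Bcan (0.98) and Dera (0.99) came first. Closest to Abhd11 was Cldn5, a tight junction gene of endothelium (0.99).

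Genes related to the 10 by family or pathway mostly showed no call. Of 147 listed, 95 had a kept probe set, and without a block none passed, where 0.283% of all genes did in either direction. Before adjustment 14 of the 95 had a p under 0.05 (limma). No share of all genes at that level stands beside this count, so nothing is read from it. With the replicate block 2 rose and 2 fell (3.45% of all genes were called), and the same 4 moved with the split of replicates as a block (2.63%). The median log2 difference of the 95 was 0.13, against 0.07 for all genes. The 2 that rose were Sox17, an endothelial factor, from 832 ± 92.8 to 1278 ± 106 (SD over 4 mice per genotype), and the Fc receptor gene Fcgr3, from 2673 ± 342 to 4174 ± 818. The 2 that fell were hydrolase genes related to Abhd11. Abhd5, a cofactor of triglyceride breakdown, went from 3553 ± 513 to 1898 ± 364, and Abhd16b from 227 ± 51.8 to 63.5 ± 36.3. A second kept probe set for Abhd5 differed by 0.10 on the log2 scale.

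The closest relatives had differences of either sign. Among homeobox relatives of Six4, Six5 had a log2 difference of 0.50 (SE 0.36) and Six2 -0.31, while the EYA partner genes Eya3 and Eya4 had -0.22 and -0.97. Sox8 and Sox9 had differences of 0.61 (SE 0.35) and 0.21. Alk had 0.16 beside Ltk, and the complexin Cplx2 0.06 beside Cplx1. Mpo, a haem peroxidase of neutrophils and also the gene next to Lpo on chromosome 11, had 0.51. Camk2n1, the other inhibitor of calcium/calmodulin-dependent kinase II, had -0.33 (SE 0.15), opposite in sign to Camk2n2, and Camk4 had -0.65. Where a second probe set was kept it gave 0.20 for Eya3, -0.20 for Sox9, 0.53 for Cplx2 and 0.23 for Camk4, so the probe sets of Eya3, Sox9 and Camk4 differed in sign. None of these genes passed in any of the 3 fits.

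The nearest measured genes on either side of each of the 10 on its chromosome had differences on both sides of 0, positive in 15 of 20 and with a median of 0.05, against 0.07 for all genes. As the median of all genes lies above 0, most genes were positive, and nothing is read from the count of 15. Before adjustment 2 of the 20 had a p under 0.05 without a block (limma), a count with no share of all genes beside it. Of these 20 neighbours none was called without a block or with the replicate block, and 1 with the split of replicates as a block. This was Itpka, a kinase gene of inositol phosphates beside Ltk, which read 200 ± 44.4 in wild type and 344 ± 124 in mutants (SD over 4 mice per genotype). It differed by 0.69 on the log2 scale (limma, adjusted p = 0.0408, and 0.0573 with the replicate block). Wbscr25, beside Abhd11, had a difference of -1.81, and -0.34 on its other kept probe set, and was not called.

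Markers of cell types that could carry these transcripts were read from the same arrays. Summed markers of elongating spermatids lay between 85119 and 152039 in wild type and between 4713 and 31369 in mutants, and 1 of 12 markers fell in the unblocked fit, 11 under the replicate block and 8 where the split of replicates was the block. Whether the makeup of the testis has a part in these values was not tested. Among 8 of 11 glial and Schwann cell markers that were kept, none was called, and their sum ran from 1987 to 3564 in wild type and from 2518 to 4038 in mutants. The glial markers Foxd3, Fabp7 and Cdh19 lay below the filter. Sertoli cell markers (14 kept) had a median difference of 0.12, Leydig cell markers (8 kept) 0.14 and spermatogonial markers (13 kept) 0.16. Of these, only the spermatogonial gene Utf1 was called, with the replicate block, from 67.8 ± 28.6 to 132 ± 46.3.

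Summed endothelial markers (11 kept) ran from 2916 to 3815 in wild type and from 4061 to 4533 in mutants, without overlap. The sums add linear intensities and include the rise of Sox17 given above. The median difference of the 11 was 0.15, against 0.07 for all genes, with 10 positive and none called without a block. Sox17 was called with both blocks and Cldn5 with the split of replicates as a block. Macrophage markers (11 kept) had a median of 0.22, and Fcgr3 was the only one of them called. Of T cell markers only Cd3d was kept, and it was lower in mutants, 60.2 ± 15.8 against 203 ± 115 (limma, adjusted p = 0.0408 with the split of replicates as a block, 0.051 with the replicate block and 0.111 without). Spermatocyte markers (12 kept) had a median of -0.04, and 3 of the 12 differences were positive. Their sum did not overlap either, at 39472 to 46478 in wild type and 49232 to 54732 in mutants. This sum adds linear intensities, so the rise of Tex101, given next, weighs heavily in it and the other markers less. Tex101 alone was called, and rose with both blocks, from 9758 ± 1962 to 19694 ± 4916. The part of any of these cell types in the levels of the 10 genes was not tested.

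**Figure D5:**
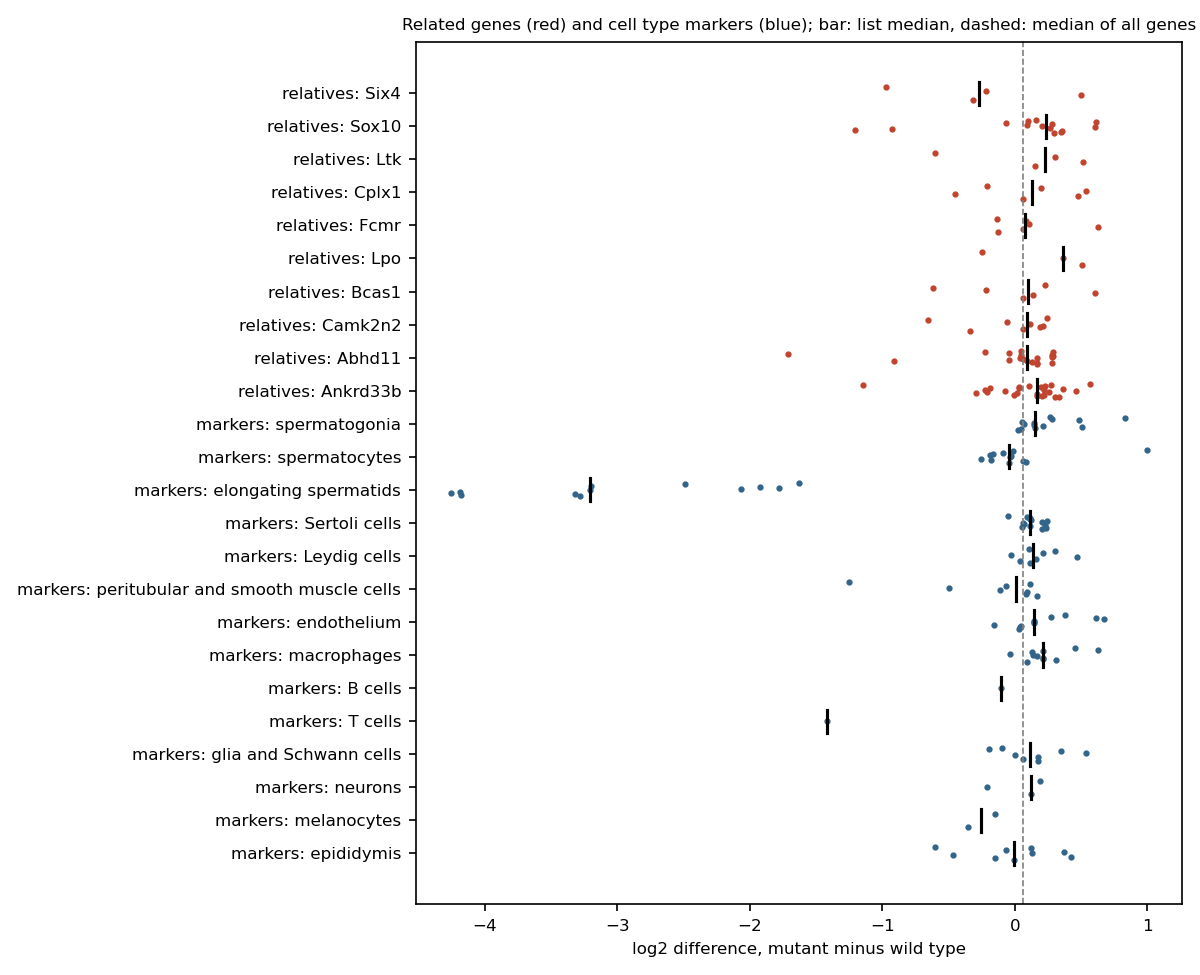
Log2 difference, mutant minus wild type, of each measured gene in the lists of related genes (red) and of cell type markers (blue), with the median of each list as a bar and that of all genes as a dashed line. The list medians lie between -0.27 and 0.37 except for elongating spermatids (-3.20) and the single T cell marker (-1.42).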

How the data were processed

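Whole-testis RNA of 8 mice was hybridised to Affymetrix arrays. The deposited values are linear intensity values from GCOS, per the submitters' processing notes, whose version is not given in the sources used here. Each array of the deposited table has a trimmed mean of 500 (2% of probe sets cut at each end), and no detection calls come with it. Precision is limited by how many arrays there are. Of 45101 probe sets, 64 controls were set aside. Symbols came from the platform annotation, updated by Entrez identifier, and 34945 probe sets had 1 symbol. Intensities were taken as log2(value + 16). Probe sets whose mean log2 value over all 8 arrays, mutants included, lay above the 40th percentile were kept (27022). Each gene took the probe set with its highest mean log2 value (13787 genes).

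Genotypes were compared with limma 3.58.1 in R 4.3.3 (lmFit, eBayes with trend, two-sided), Benjamini-Hochberg adjusted over all probe sets or genes, threshold 0.05. Lists were described by counts and medians. The test was checked on simulated data. Deviations of mice with the same replicate number from their genotype mean correlated (r from 0.518 to 0.618). These correlations hold the difference between the sets of replicates, so they do not show pairing by number, and the labels do not explain the numbers. Only mutant replicate 1 was closest to the wild type of its own number, and each mutant was closest to a wild type of its own set (1 and 2, or 3 and 4). P-values weigh a difference against the spread between these mice, moderated by limma over all probe sets or genes. In the blocked fits it is the spread that the block leaves. The 10 genes, the lists, the tests and the split of replicates were chosen with earlier results of these data known. Genes named beside the 10 are their chromosomal neighbours, related genes and markers past the threshold (up to 4 a list), the closest relatives, singled out after their values were seen, and the 3 genes of the highest correlation. Alternatives covered blocks, pseudocounts, scaling, filter, trend, probe set means and leaving out each mouse. Figures used matplotlib 3.10.9.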

Additional observations from a re-analysis of the deposited data

Results flagged for a closer look

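Among 42 groups of 4 mice (21 probe sets, 2 genotypes), 1 held a value far from the others by Dixon's criterion, where chance gives about 1 in 20. Mutant replicate 2 read 1330 for Fcmr, while the other 3 mutants read between 828 and 888.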

How the results depend on the processing

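The 10 representing probe sets had positive log2 differences under each alternative that was run for them (140 of 140 values). As their genotypes did not overlap, leaving out mice or changing the pseudocount could not turn the sign. Ltk moved most between sets of replicates, as given above. Without a block, 0 of 12 member probe sets were called higher, against 10 under the replicate block and 10 with the split of replicates as a block (batch block). The count was 1 with a pseudocount of 64 and 1 without trend. It was 0 in each fit without 1 mouse. With the batch block it was 0, 2, 3 and 7 without wild-type replicates 1 to 4 and 9, 7, 0 and 5 without mutant replicates 1 to 4. Of the 10 genes, 1 was called without a block, 10 with either block, 0 with a pseudocount of 1, 0 without the filter, and 0 to 1 without 1 mouse (with the batch block 1, 2, 0 and 7 without wild-type replicates 1 to 4 and 10, 8, 0 and 5 without mutant replicates 1 to 4, while 3 to 76 of all genes were called higher in these fits). With the replicate block and quantile normalization, median centring or no filter, the counts were 9, 9 and 7 probe sets and 9, 9 and 9 genes. With the batch block they were 9, 8 and 7 probe sets and 9, 8 and 8 genes. Related genes called went from 0 to 4 under the replicate block and to 4 under the batch block, and neighbours from 0 to 1 with the batch block. Probe sets without overlap went from 11 to 7 with median centring (from 2.27% to 0.958% of all kept probe sets). Probe sets that differed between sets of replicates numbered 3 to 5 without 1 mouse. The causes were not tested. Combined settings were chosen after seeing the data.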
